A study of Mus musculus with 6 samples.

Results

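P53, the tumour suppressor encoded by Trp53, is followed here through 10 genes on mouse expression arrays: Trp53 itself, the arrest genes Cdkn1a, Gadd45a, Gadd45b, Gadd45g and Btg2, the feedback genes Mdm2, Mdm4 and Ccng1, and the stress gene Sesn1. Every non-control probe that the scanner files name for one of these genes was taken, which gave 13 probes of 55681 on the array, and 10 of 35527 gene names. All 13 passed the filter on dim signals, which asks that the group with the higher mean reach 50, as did 30994 probes in total. The cells were 3T3, an established mouse fibroblast line, grown with serum and treated for 48 h with 50 nM of GapmeR Ntep or of GapmeR control. A GapmeR is an antisense oligonucleotide with which RNase H cleaves the bound RNA, and Ntep is a long non-coding RNA that the study linked to proliferation. Each group had 3 arrays, 1 from each of 3 independent experiments, and all cultures came from this 1 line without any further genetic change named in the labels.

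P53 is a transcription factor that is held at a low level by the ubiquitin ligase Mdm2 and is released from it when DNA is damaged or other stress is sensed. It then binds paired copies of a 10-base motif near its target genes. Some targets halt the cell cycle, with Cdkn1a (p21), an inhibitor of cyclin-dependent kinases, as the best known. Others, Mdm2 among them, lower P53 again and so close a feedback loop. In fibroblasts this response is known for growth arrest after damage. P53 itself is largely controlled as a protein, which these arrays do not measure.

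Signal was read as background-subtracted intensity, quantile normalized across arrays. Between 43.7% and 53.3% of probes were well above background per array, and no member probe was saturated. The GapmeR's target, listed as A630089N07Rik, read 473, 91.4 and 228 in experiments 1, 2 and 3 where the label is GapmeR Ntep. The matching control arrays read 272, 271 and 360.5, and all values below are given in this order of experiments. In experiment 1 the probe therefore went against the label, and over all arrays the log2 difference was -0.48 (SE 0.66, n = 3 per group, limma adjusted p = 0.676), so the arrays go by their labels throughout. Of 10 fibroblast markers, 9 were well above background on all arrays. The summed signal of the 10 was 558445 to 736901 with the label GapmeR Ntep and 806886 to 881795 with GapmeR control. With GapmeR Ntep 9 were lower, at a median of -0.57 (log2) and none past adjustment. At an unadjusted p under 0.05 (limma) 2 were lower, as were 12.4% of all tested probes. Of 8 macrophage markers, Ptprc, Adgre1, Tyrobp and Mrc1 were not well above background on any array. The brightest probes of Csf1r, Cd68, Itgam and Cd14 were well above it on all, with a summed signal of 42153 to 74778 against 19702 to 27192. Their median difference was 1.23, and Cd68 passed (log2 1.21, limma adjusted p = 0.0230), as did Cd14 with the experiments as blocks (log2 1.11, 0.0420). Other tested probes differed by less, at 0.45 for Csf1r, 0.69 for Cd68 and -0.017 for Itgam. Of 5 epithelial markers, all were tested, with sums of 3298 to 7603 against 2984 to 3930 and a median of 0.48. Of 5 endothelial markers, 3 were tested, with sums of 780 to 928 against 733 to 951 and a median of 0.38, while Cdh5 and Tek were not well above background on any array. None of these 10 markers passed adjustment (2 endothelial ones were higher at an unadjusted p under 0.05, limma, as were 13.7% of all tested probes). The part of these markers in the results below was not tested, and in bulk RNA a smaller share of cells cannot be told apart from less RNA per cell.

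Cdkn1a and Gadd45a had the largest differences of the members, both higher with GapmeR Ntep in every one of 3 experiments. After quantile normalization the feedback genes Mdm2 and Ccng1 were within 0.07 of 0 on the log2 scale. The Mdm2 signal lay near the top of each array, where fine differences cannot be resolved. Gadd45b, a relative of Gadd45a, was lower in all 3 experiments. No member probe passed an adjusted p of 0.05 (limma, Benjamini-Hochberg over 30994 probes, two-sided), where 5.49% of all tested probes did. At an unadjusted p under 0.05 there were 4 of 13, against 26.0% of all tested probes, and no member passed after adjustment by the methods' t-test (1.04% of all) or with the experiments as blocks (3.95%). At the limits the study used, a fold change of 2 and an unadjusted p under 0.01, 1 member probe passed, against 5.81% of all. The groups did not overlap for 5 of 13 member probes, against 32.2% of all. Of these, 4 were higher with GapmeR Ntep (17.1% of all) and 1 was lower (15.1%). In all 3 experiments 5 member probes were higher (32.7% of all) and 3 lower (26.5%). Of the 13 probes 7 were higher, which is 53.8% against 54.9% of all tested probes, and their median log2 difference was 0.03 against 0.07 for all.

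**Figure D1:**
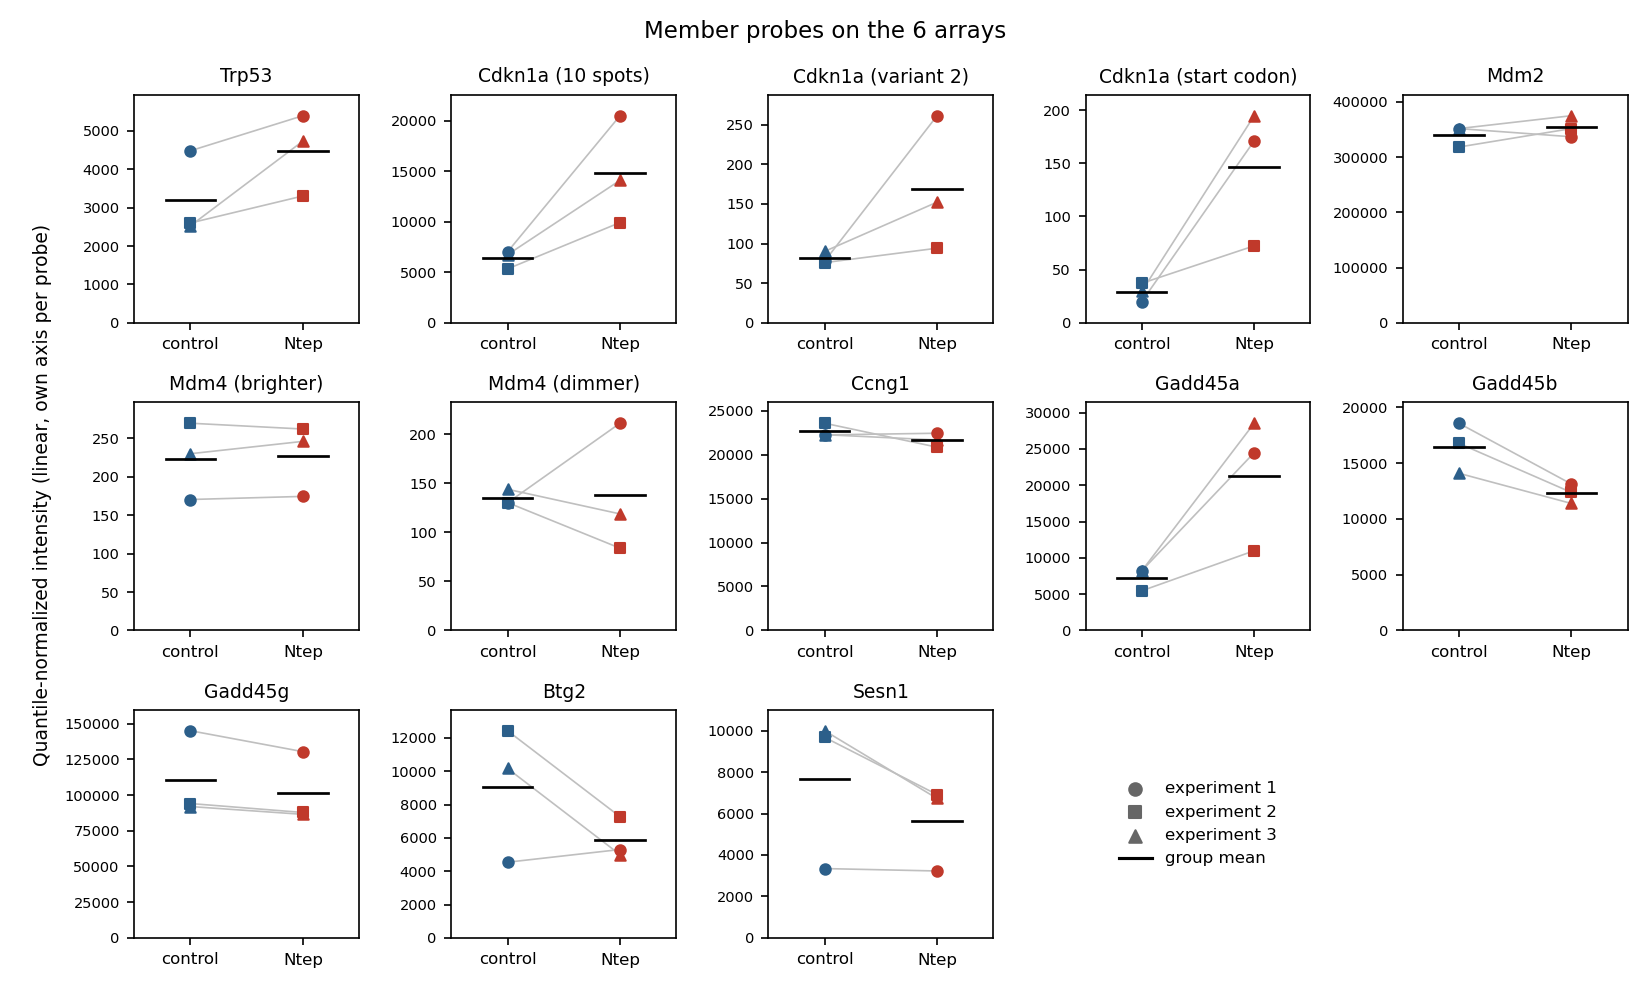
Normalized intensity (linear, own axis from 0 for each probe) of the 13 member probes on the 6 arrays, with a symbol for each experiment, a grey line joining its arrays and a black bar at the group mean. The 3 Cdkn1a panels and Gadd45a show all GapmeR Ntep arrays above all control arrays, Gadd45b shows the opposite order, and the other 8 panels overlap.

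Trp53, the gene of the factor itself, lies on chromosome 11 from base 69580348 to 69591873 (GRCm38.p6). Its probe starts at base 1187 of transcript variant 1 and covers chr11:69404204-69404263 in mm9, the build of the array files. The signal was 5393, 3304 and 4732 on the GapmeR Ntep arrays and 4480, 2601 and 2527 on the control arrays. Each experiment put GapmeR Ntep higher, by 0.27, 0.34 and 0.90 on the log2 scale, but the groups overlapped, since the control array of experiment 1 exceeded the GapmeR Ntep array of experiment 2. The difference of 0.51 (SE 0.32, 95% interval -0.36 to 1.37, n = 3 per group) had a limma adjusted p of 0.394, and omission of single arrays left the difference between 0.36 and 0.77. With the experiments as blocks the limma fit gave an SE of 0.18 and an adjusted p of 0.197. The probe was spotted 2 times on each array, and the spots of 1 array differed with a coefficient of variation of at most 6.31%.

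Cdkn1a encodes p21, which binds and inhibits cyclin-dependent kinases. It was read by 3 probes at separate places of the gene on chromosome 17, and each is shown by 30 of its bases because their differences were of unequal size. They lie where the files place transcript variant 1 (from base 1619, chr17:29237377-29237436, mm9) and variant 2 (from base 55, chr17:29227986-29228045). The remaining one lies from base 146 of an older p21 messenger RNA (chr17:29235299-29235358), and the capitals in it mark the ATG at which the p21 coding sequence opens. All are given 5′ to 3′ on the plus strand. The probe names used below follow these placements only. Whether a probe reads the named variant alone was not determined.
Variant 1 probe, bases 1 to 30: ctaagggagctcacaggacactgagcaatg
Variant 2 probe, bases 1 to 30: aatggagacagagaccccagataattaagg
Start codon probe, bases 31 to 60: tcttgtgtttcagccacaggcaccATGtcc

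The variant 1 probe gave 20493, 9924 and 14101 on the GapmeR Ntep arrays against 7031, 5344 and 6745 on the control arrays. The lowest GapmeR Ntep array was above the highest control array. Means were 14839.5 ± 5323 and 6373 ± 903 (SD, n = 3 each), a log2 difference of 1.17 (SE 0.31, 95% interval 0.34 to 1.99, limma adjusted p = 0.107). Omission of single arrays left the difference between 0.90 and 1.43, and the adjusted p between 0.0707 and 0.293. With the experiments as blocks the limma adjusted p was 0.0818. This probe stands in 10 spots on each array. Before normalization, spots of 1 array had a coefficient of variation of 3.0% to 4.46%, while the 3 GapmeR Ntep arrays differed by 35.9% and the control arrays by 14.2% after it.

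**Figure D2:**
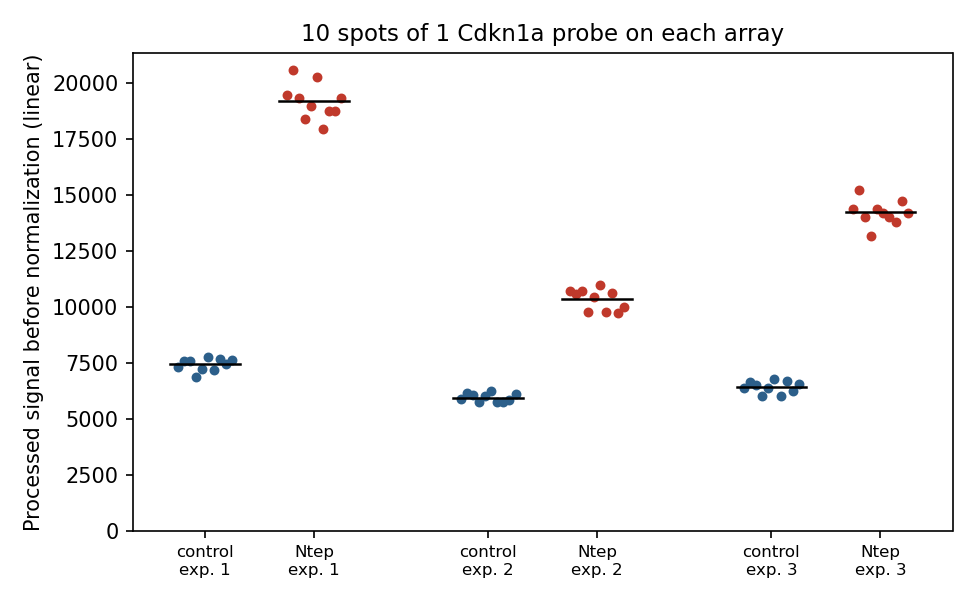
Processed signal before normalization (linear, from 0) of the 10 spots of the variant 1 Cdkn1a probe on each array, grouped by experiment, with the mean as a bar. Spots of 1 array lie close together, between 17969 and 20609 on the GapmeR Ntep array of experiment 1 and between 6869 and 7758 on its control array. In each experiment all spots of the GapmeR Ntep array lie above those of the control array. Spots repeat the reading of 1 culture and are no replicates of the treatment.

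The start codon probe gave 171, 72.4 and 195 on the GapmeR Ntep arrays. On the control arrays it stood at 20, the floor, 37.2 and 29.6, none of them well above background. With the lowest signals that were well above background as the limit on the control arrays, the probe was 2.71-fold higher with GapmeR Ntep over the groups. That value is no lower bound, since within experiment 2 the probe was 1.95-fold higher. This was the member probe that passed the limits of the study (log2 2.26, SE 0.49, unadjusted p = 0.00792, limma adjusted p = 0.0780). With the normexp background correction, run over all 55681 probes, the difference was 0.83 and so under a fold of 2. A fit that took the experiments as blocks gave an adjusted p of 0.137 and missed the unadjusted limit (5.41% of all probes passed there), and the limits were also missed by the methods' t-test and without GapmeR Ntep replicate 1 or 3 or any 1 control array. With array weights (0.0478, 13.2% of all probes called), with the spread pooled over the tested probes alone (0.0466, 5.32% called) or without GapmeR Ntep replicate 2 (0.0492), the adjusted p passed.
The variant 2 probe gave 261, 94.1 and 152 against 77.8, 76.0 and 90.1. Here too the groups did not overlap, though the GapmeR Ntep array of experiment 2 was above the highest control array by little. The log2 difference was 0.94 (SE 0.41, limma adjusted p = 0.244), and it was 0.56 without GapmeR Ntep replicate 1 and 0.51 with normexp. All 3 probes thus pointed the same way, in each of the experiments. In each of them experiment 2 had the smallest difference, at 0.89 for variant 1, 0.31 for variant 2 and 0.96 for the start codon probe.

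The Gadd45 genes encode small stress proteins that bind kinases of the cell cycle and of stress signalling. Gadd45a, the one best known as a P53 target, gave 24489, 10975 and 28545 on the GapmeR Ntep arrays. The control arrays gave 8212, 5456 and 8196, so the groups did not overlap, and experiment 2 again was lowest. The log2 difference was 1.46 (SE 0.45, 95% interval 0.27 to 2.65, limma adjusted p = 0.138). Values within the experiments were 1.58, 1.01 and 1.80. Taking experiments as blocks gave an adjusted p of 0.0791.
Gadd45b, which is known to respond to TGFβ and NF-κB signalling, stood at 13138, 12385 and 11391 against 18588, 16786 and 14098. All control arrays were above all GapmeR Ntep arrays, and the log2 difference was -0.42 (SE 0.12, 95% interval -0.75 to -0.08, limma adjusted p = 0.134). With the experiments as blocks the limma adjusted p was 0.0708. Gadd45g gave 130408, 87808 and 86514 against 145060, 94082 and 91972. Its groups overlapped, since both arrays of experiment 1 were far above the rest, and the difference was -0.11 (SE 0.27, adjusted p = 0.812). Within the experiments its log2 differences were -0.15, -0.10 and -0.09, and as blocks these gave an adjusted p of 0.0900. The sign turned with 75th percentile scaling, to 0.14, and without control replicate 1, to 0.10. Relative to the median of all probes, scaling to the 75th percentile kept Gadd45a higher (1.35) and Gadd45b lower (-0.52), with Gadd45g at -0.09.

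Members were also set against each other, from the log2 ratio of their probes on each array. The 4 pairs were chosen for their contrast with the values above known, so they are given as a description with no test. The difference of Gadd45a exceeded that of Gadd45b by 1.88 (SD 0.37 over 3 experiments), and that of Gadd45g by 1.58 (SD 0.41). In the same way Cdkn1a exceeded Mdm2 by 1.11 (SD 0.44) and Ccng1 by 1.23 (SD 0.26). The normalized Mdm2 value used here is limited by its place near the top of each array, as given below.

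Btg2 encodes an antiproliferative protein that joins the complex removing poly(A) tails. Its probe gave 5301, 7269 and 4996 on the GapmeR Ntep arrays against 4539, 12425 and 10163. Experiment 1 was slightly higher with GapmeR Ntep and the others were lower, with log2 differences of 0.22, -0.77 and -1.02. The pooled value of -0.52 (SE 0.45, limma adjusted p = 0.515) was within the spread between arrays. The control array of experiment 1 was well under the other control arrays, and without it the difference was -0.96, against -0.23 without control replicate 2.

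Mdm2, the main ligase of P53 and a P53 target itself, gave 336955, 351725 and 375027 against 351725, 318318 and 351725. Its signal lay so near the top of each array that 3 arrays received the same normalized value, and fine differences cannot be resolved there. Before normalization it was 390236, 323460 and 380009 against 328981, 303770 and 343540, higher with GapmeR Ntep in each experiment. After it, the log2 difference was 0.06 (SE 0.06, 95% interval -0.11 to 0.23, limma adjusted p = 0.587). Scaling to the 75th percentile gave 0.32, which is 0.09 above the median of all probes on that scale.
Mdm4, a relative of Mdm2 that binds P53 without being a strong ligase, was read by 2 dim probes of the same transcript. From base 3426 the signal was 175, 262 and 246 against 170, 270 and 230, and from base 1445 it was 211, 83.8 and 119 against 130, 130 and 144. The log2 differences were 0.03 (SE 0.25) and -0.07 (SE 0.37), with limma adjusted p of 0.950 and 0.915. The second probe had no common direction over the experiments, at 0.70, -0.64 and -0.28, and its sign turned with 75th percentile scaling (0.03).

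Ccng1 encodes cyclin G1, a P53 target that recruits a phosphatase to Mdm2. Its values were the most even of the members, 22434, 20846 and 21667 against 22242, 23573 and 22270. The log2 difference of -0.07 (SE 0.04, 95% interval -0.17 to 0.04, limma adjusted p = 0.353) was within the spread between arrays, and 75th percentile scaling turned its sign, to 0.11, with the median of all probes at 0.22 on that scale. Sesn1 encodes sestrin 1, a stress protein that restrains mTORC1. It gave 3228, 6913 and 6725 against 3344, 9672 and 9992. Both arrays of experiment 1 were the lowest of their groups, and the log2 difference of -0.37 (SE 0.60, adjusted p = 0.720) was within the spread, with -0.05, -0.48 and -0.57 in the experiments. Omission of single arrays moved it from -0.89, without control replicate 1, to -0.0094, without GapmeR Ntep replicate 1. For Gadd45g both arrays of experiment 1 had been the highest of their groups, and for Btg2 its control array was the lowest.

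**Figure D3:**
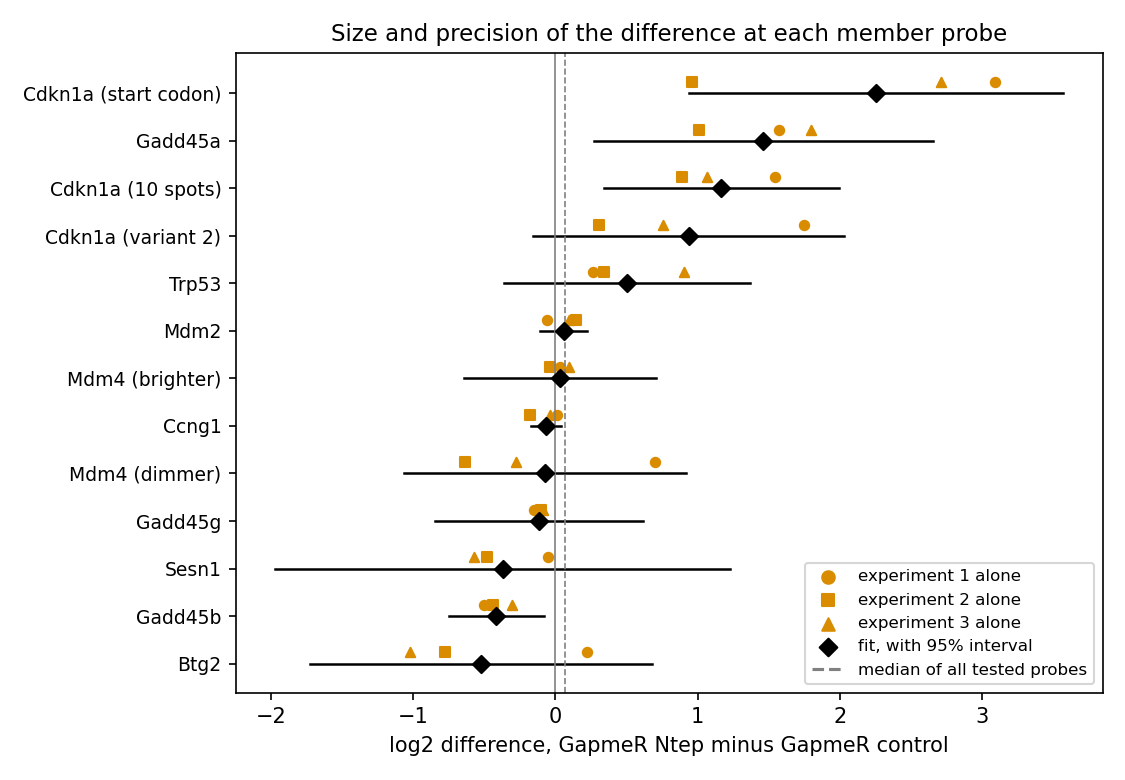
Log2 difference of GapmeR Ntep minus GapmeR control for each member probe (diamond, limma fit) with its 95% interval (line) and the value within each experiment (orange symbols), with the median of all tested probes (0.07) dashed. The intervals of Gadd45a, Gadd45b and of the variant 1 and start codon probes of Cdkn1a lie off 0, those of the other 9 probes include it.

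Promoter sequence was set beside these differences, because the members that were higher and those that were not are both counted as P53 targets. RefSeq windows (GRCm38.p6, 250 bases before to 50 after each annotated start) matched all 10 genes, with 13 windows. The P53 decamer, whose letters read the same on both strands, stood in 6 of 13 windows, one each for 6 genes, against 8.36% of 32851 windows of all genes. The genes were Cdkn1a, Gadd45a, Trp53, Mdm2, Ccng1 and Sesn1. Below, 60 bases around each match are given 5′ to 3′ along the gene, with the decamer in capitals, to show how members with and without a difference compare in these letters.
Cdkn1a, chr17:29090892-29090951, plus strand: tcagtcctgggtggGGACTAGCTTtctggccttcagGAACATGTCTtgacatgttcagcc
Gadd45a, chr6:67037413-67037472, minus strand: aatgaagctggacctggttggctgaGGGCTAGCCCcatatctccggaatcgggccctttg
Trp53, chr11:69580259-69580318, plus strand: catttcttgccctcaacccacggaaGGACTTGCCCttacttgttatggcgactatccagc
Mdm2, chr10:117710910-117710969, minus strand: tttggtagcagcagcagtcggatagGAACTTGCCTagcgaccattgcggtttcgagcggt
Ccng1, chr11:40755437-40755496, minus strand: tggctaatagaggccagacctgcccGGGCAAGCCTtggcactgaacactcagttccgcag
Sesn1, chr10:41887241-41887300, plus strand: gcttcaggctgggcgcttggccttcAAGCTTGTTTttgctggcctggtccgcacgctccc

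Cdkn1a alone had 2 matches in a window, 73 and 51 bases before its upstream start. Its other annotated start had none. The matches lay 40 bases before the start for Gadd45a, 75 for Trp53, 173 for the downstream start of Sesn1, 185 for Ccng1 and 186 for Mdm2. Gadd45b, Gadd45g, Btg2 and Mdm4 had no match in these windows. Cdkn1a and Gadd45a, with the largest differences, held the decamer, and so did Mdm2 and Ccng1, which were near 0 after quantile normalization. Gadd45b and Gadd45g instead held TATAAA, searched on both strands, at 46 and 27 bases before the start. Trp53 held it at 248 on the reverse strand, and 13.6% of all windows held it. Btg2 held the cyclic AMP response element TGACGTCA at 166 (1.79% of windows) and Mdm4 the AP-1 motif TGANTCA at 134 (7.81%), both reading the same on either strand. None of these motifs overlapped another. A match is a run of letters and no measure of binding, and P53 also binds further from the start than these windows reach.

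**Figure D4:**
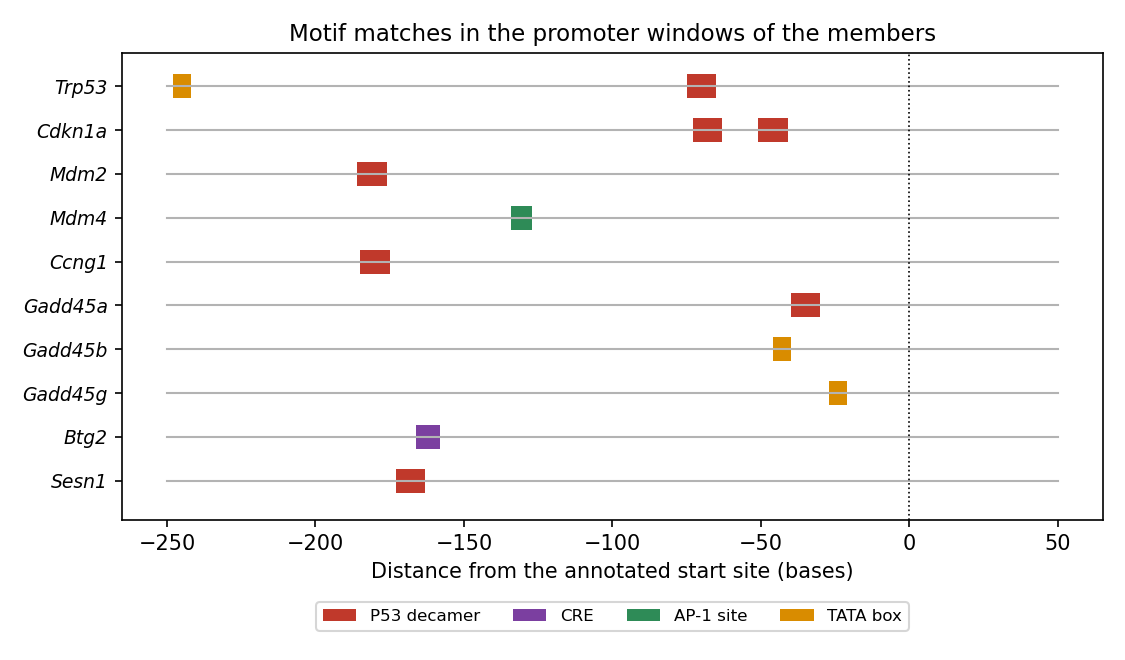
Position of motif matches in the promoter windows of the 10 members, from 250 bases before to 50 bases after the annotated start (bases, dotted line at the start), with the windows of genes with more than 1 start drawn on 1 line. Red bars mark the P53 decamer, found for 6 genes and 2 times for Cdkn1a, and the other colours mark motifs of other factors.

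Genes around the members were taken from 5 lists, each read by the brightest tested probe of a gene. Of 18 regulators of P53, all were tested, with a median log2 difference of -0.13. Past adjustment 1 was lower (2.8% of all tested probes) and none higher (2.69%). That gene was Ppm1d, the phosphatase Wip1, itself a P53 target that dampens the response. It gave 2414, 3564 and 3214 on the GapmeR Ntep arrays against 11336, 9991 and 9708 on the control arrays. No array of either group came near the other group, and the signal fell by 1.77 on the log2 scale (SE 0.17, limma adjusted p = 0.0249). Under the block fit its adjusted p was 0.0687, while Chek2 (log2 0.54, 0.0363) and Crebbp (0.64, 0.0340), named after their values were seen, passed in its place. By the methods' t-test its adjusted p was 0.0516. Ppm1d also did not pass without GapmeR Ntep replicate 3 (0.0924) or without control replicate 1 (0.0594), 2 (0.113) or 3 (0.108). Cdkn2a, whose product Arf holds Mdm2 in check and which is known to be lost in NIH3T3, was bright here, at 74830 to 113829 against 90836 to 121436, with a log2 difference of -0.21 (adjusted p = 0.576).

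Of 18 other P53 targets, in DNA repair, metabolism and stress signalling, 2 passed after adjustment, both higher (2.69% of all tested probes). The median was 0.42, and 0.74 without control replicate 1. Xpc, which recognises damaged bases in nucleotide excision repair, gave 5739, 6746 and 5988 against 3175, 3874 and 3563, a rise of 0.80 on the log2 scale (SE 0.10, adjusted p = 0.0352). Ercc5, the endonuclease XPG of the same pathway, gave 2549, 1904 and 2208 against 1346, 1264 and 1334, a rise of 0.75 (SE 0.12, adjusted p = 0.0473). Neither gene's groups overlapped. Neither passed without the filter on dim probes (0.0607 for Xpc and 0.0809 for Ercc5), by the methods' t-test (0.0659 and 0.0812) or with the spread pooled over tested probes alone (0.0525 and 0.0657), nor did Ercc5 with 75th percentile scaling (0.0574). Xpc lost its call when any 1 array was left out (0.0579 to 0.137). So did Ercc5 except without GapmeR Ntep replicate 2, and Ercc5 also with experiments as blocks (0.0673), where Gdf15, a secreted stress factor chosen here after its value was seen, passed (log2 1.35, 0.0466).
Some wide differences of this list pointed the other way, in genes also named after their values were seen. Ephx1, an epoxide hydrolase that detoxifies reactive compounds, gave 7652, 17086 and 11313 on the GapmeR Ntep arrays against 29519, 49864 and 46572 on the control arrays, with no overlap. Its log2 difference was -1.84 (SE 0.39, unadjusted p = 0.0070, limma adjusted p = 0.0738), past the limits of the study, and the adjusted p passed with normexp (0.0381), with array weights (0.0295) and with the spread pooled over tested probes (0.0464). Dcxr, a carbonyl reductase, stood at -1.78 (adjusted p = 0.213) and Rrm2b, a subunit of ribonucleotide reductase, at -1.02 (0.263). The Rrm2b probe was dim, with means of 72.8 and 141 and overlapping groups, and the other probe of this gene stood at -0.18.
Of 13 apoptotic P53 targets, 12 were tested and none passed, nor did any by the methods' t-test after adjustment, with a median of 0.20. Of these 12 genes 6 were higher and 6 lower, where 54.9% of all tested probes were higher. At an unadjusted p under 0.05 (limma) there were 5, all higher, where 13.7% of all tested probes were. The smallest p belonged to Ei24, of the endoplasmic reticulum (log2 0.44, adjusted p = 0.0557), the death receptor Tnfrsf10b (0.96, 0.0650), Bbc3, the BH3 protein Puma (0.61, 0.0712), and the nuclease Aen (0.83, 0.117).

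The paralogues of members had 10 of 12 genes tested and none past adjustment, with a median of 0.18. At an unadjusted p under 0.05 (limma) 3 were higher, as were 13.7% of all tested probes. Sesn2, paralogue of Sesn1, was higher by 0.83 (SE 0.18, adjusted p = 0.0742) and gave 2609, 1774 and 1838 against 1075, 1212 and 1165. Btg3, paralogue of Btg2, was higher by 1.11 (SE 0.29, adjusted p = 0.106). Tob2, of the same family, was higher by 0.78 (adjusted p = 0.140) and passed with experiments as blocks (0.0387). Trp63, of the P53 family, was higher by 0.61 (adjusted p = 0.255), but a dimmer probe of it differed by -2.37. Of the 10 tested genes, 4 had groups without overlap and GapmeR Ntep above (17.1% of all tested probes), and 0 had it below (15.1%). They are the 4 picked by smallest p, a choice that favours groups without overlap. The groups of the members Sesn1 and Btg2 overlapped. Over the list 7 genes were higher and 3 lower, where 54.9% of all tested probes were higher. Sesn3, also a paralogue of Sesn1 and named after its value was seen, stood at -0.87 (limma adjusted p = 0.263). Whether the paralogues differed from the members was not tested.
Of 18 cell cycle genes that p21 is known to repress through the DREAM complex, 17 were tested and none passed, with a median of 0.14. None passed by the methods' t-test after adjustment. At an unadjusted p under 0.05 (limma) 4 were higher and 2 lower, where 13.7% and 12.4% of all tested probes were. Cdc20, which activates the anaphase-promoting complex, was higher by 0.48 (adjusted p = 0.0753), Ccne1, cyclin E1, by 0.44 (0.0857) and Plk1, a mitotic kinase, by 0.64 (0.0914). Ccnb1, cyclin B1, stood at -0.21 (0.103) by its brightest probe, and its other probes at 0.91 and 1.13, so probes of this gene disagree in sign. The widest difference of the list was that of Mki67, named after its value was seen, at -0.84 (limma adjusted p = 0.148). Its groups did not overlap, and its other probe stood at -0.85. Over the list 11 genes were higher and 6 lower.

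**Figure D5:**
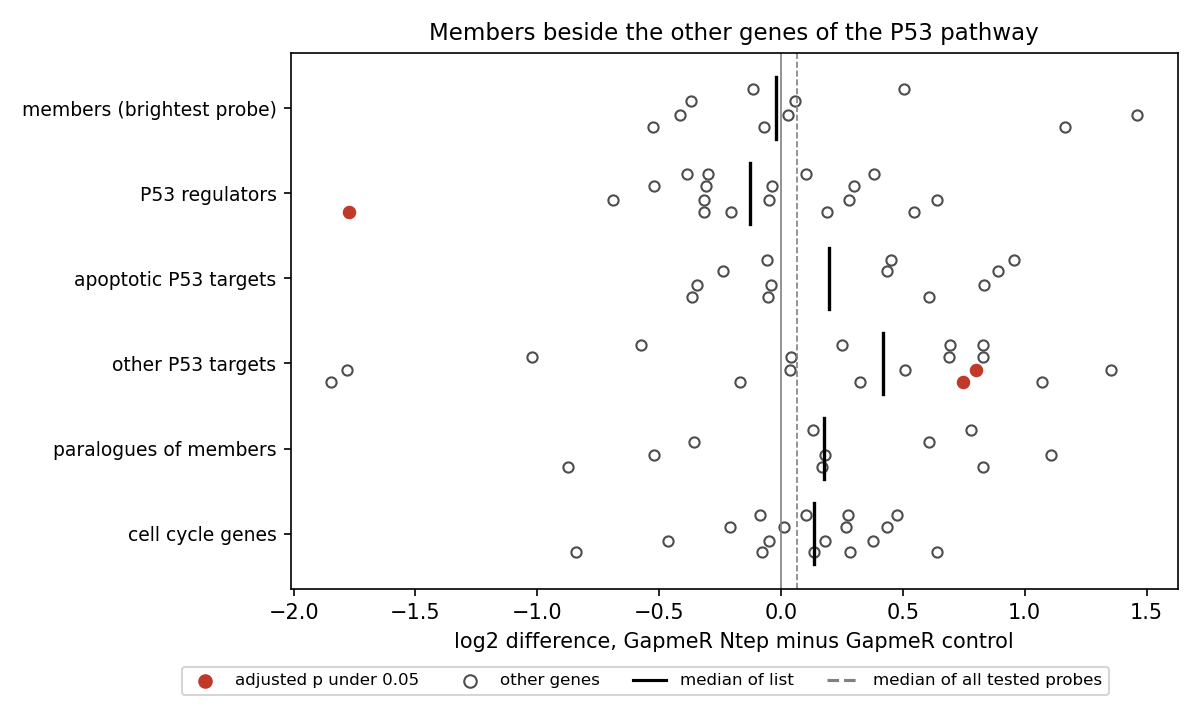
Log2 difference of GapmeR Ntep minus GapmeR control for the brightest probe of each member and of each tested gene of the 5 lists (circles, spread vertically for legibility only), with the median of each list (bar) and of all tested probes (dashed, 0.07). Filled circles mark Ppm1d at -1.77, Xpc at 0.80 and Ercc5 at 0.75, the genes with an adjusted p under 0.05.

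The genes most like Cdkn1a over the 6 arrays were sought among 14526 probes of named genes that were well above background on all arrays. Likeness was the root mean square distance of log2 values, each centred on its own mean, to the variant 1 probe. Nearest were 2310057M21Rik (0.06), Polr3f (0.08), Itgam (0.08), Hexim2 (0.08) and Arid3a (0.08), with log2 differences of 1.12 to 1.25 and limma adjusted p of 0.0858 to 0.130. The likeness includes the group difference, so values near those of Cdkn1a follow from the search and are no separate result. Itgam is among the macrophage markers above, where its other tested probe stood at -0.017. Of the other members, Gadd45a was nearest at 0.32, with 722 probes nearer than it, and Trp53 followed at 0.41. The variant 2 probe of Cdkn1a stood at 0.20, whereas the start codon probe, which was not well above background on the control arrays, stood at 0.72.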

How the data were processed

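RNA of 6 cultures was measured on 1-color Agilent arrays, all on 1 slide. Per the labels, the authors extracted signals with Agilent Feature Extraction 10.7.3.1, and they deposited scanner files with background-subtracted intensity per spot and a table of quantile-normalized intensity with values under 20 set to 20. The methods and the supplementary documentation name different formats of the array, and the latter has the dose given 2 times.

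Here, spots were quantile normalized and averaged per probe, and values under 20 were set to 20. The groups' log2 values entered limma 3.58.1 (R 4.3.3, with version 1.17.8 of the data.table package), two-sided and without pairing, with Benjamini-Hochberg adjustment over the 30994 probes tested. Tables and figures were made in Python 3.11.15 with numpy 2.4.6, pandas 2.3.3, scipy 1.17.1 and matplotlib 3.10.9. The median distance to the deposited values was 0.0039 (log2). The steps were tested on simulated data. There, 13% of log2 changes of 1 and 44% of log2 changes of 2 passed adjustment (100 probes each). No other of the 30254 simulated probes was changed, and arrays of an experiment shared no effect. These shares therefore need not hold for the measured arrays. A probe that did not pass is not shown to be unchanged. Per the supplementary documentation, arrays of a number share an experiment. Their residuals correlated at 0.467, 0.300 and 0.254, against -0.327 to 0.126 between arrays of different numbers, and the experiments were therefore also fitted as blocks.

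All probes of the 10 genes and of the target are named, with at most 4 genes of each list (those past adjustment, otherwise those of smallest p) and the 5 genes most like Cdkn1a. Members and lists were chosen with earlier results of these data known. Probe coordinates are mm9, as in the files, and promoters and genes GRCm38.p6 of RefSeq. No annotation of mm9 was used here, so exons under the probes are not given. The number of arrays limits precision.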

Additional observations from a re-analysis of the deposited data

How the results depend on the processing

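The spread moderated over the tested probes alone was an alternative chosen after seeing the data. Scaling to the 75th percentile moved the median of all tested probes by 0.16, to 0.22, and turned the second Mdm4 probe to 0.026, Ccng1 to 0.11, Gadd45g to 0.14 and Ccnb1 to 0.0068. Array weights turned the first Mdm4 probe to -0.0085. With a strict background filter (all 6 arrays well above it), the median of the apoptotic targets was -0.042. Member probes past adjustment (0) became 1 with array weights and 1 with the spread moderated over tested probes. Those past fold 2 and p 0.01 (1, the start codon probe) became 2 with normexp, a floor of 5, array weights and that spread, where 3.09%, 7.41%, 7.9% and 8.16% of all probes passed. With normexp these were the variant 1 probe of Cdkn1a and Gadd45a, since the start codon probe was at 0.83, and in the other settings both of these Cdkn1a probes. The count was 0 by the methods' t-test, with the replicate block and under the strict background filter, where the start codon probe has no value. For the lists, array weights called 3 regulators, 3 apoptotic targets, 4 other targets, 2 paralogues and 3 cell cycle genes. The replicate block called 2 regulators and 1 paralogue, normexp 1 apoptotic target, that filter 2 regulators and 1 apoptotic target, and the methods' t-test 0 regulators and 0 other targets. No filter on dim probes left 0 other targets. The spread over tested probes called 1, Ephx1 at -1.84, and neither Xpc nor Ercc5. Beyond the values given with the results, the block changed no other call. Leaving out 1 array gave 0 to 1 member probes past adjustment, 0 to 3 past fold 2 and p 0.01 (3 without GapmeR Ntep replicate 2, against 6.65% of all probes, and 0 without any other array, against 3.04% to 5.02%), 0 to 1 regulators, 0 to 2 apoptotic targets, 0 to 1 other targets, 0 to 1 paralogues and 0 to 1 cell cycle genes. It gave -0.15 to 0.21 and -0.43 to 0.23 for the Mdm4 probes, -0.31 to 0.10 for Gadd45g and -1.05 to 0.14 for A630089N07Rik. Causes were not tested. The start codon probe was not well above background on any control array.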
